A study of Homo sapiens with 6 samples.

Results

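The genes described are 44 genes of the mitotic spindle and kinetochore, taken from the deposited table by their symbols, and all 44 of the 44 symbols were found among its 27009 genes. They were listed by function, though with earlier results of these data known. They fall into 9 roles: 3 mitotic kinases, 5 spindle checkpoint proteins, 4 proteins that trigger anaphase, 3 partners of the chromosomal passenger complex, 8 kinetochore proteins, 6 condensin subunits and topoisomerase, 5 kinesins, 6 spindle assembly factors and 4 cytokinesis proteins. By the labels, RNA sequencing was done on Hep3B, a human hepatocellular carcinoma cell line. In these cells the gene for PD-L1, the ligand of the immune checkpoint receptor PD-1, had been knocked out. The 3 vector libraries came from knockout cells that carried the empty lentiviral vector (pCDH-CMV-Puro, with a CMV promoter and puromycin selection). The 3 libraries labelled nPD-L1 came from knockout cells made stable with that vector carrying a mutated PD-L1 (LCL replaced by ACA) that is directed to the nucleus, so both groups lacked the endogenous protein and differed in the insert. The labels do not say whether replicates were separate cultures or clones, and p values then measure the spread between these libraries, which may be technical.

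In mitosis the duplicated chromosomes are compacted by condensin, attached through their kinetochores to spindle microtubules, and held until the spindle checkpoint is satisfied. The anaphase-promoting complex then releases separase, which cuts cohesin, and the cytokinesis proteins divide the cell. Most of these genes are transcribed mainly in late G2 and mitosis, so in a bulk culture their levels are commonly used as a readout of proliferation.

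Values are scaled reads, the reads counted on a gene divided by a size factor for the library. The libraries held 17427519 to 22253295 reads on genes, and 43 of the 44 genes had at least 100 reads in every library. CD274, the gene for PD-L1, had 28.3, 38.4 and 47.8 scaled reads in the vector libraries and 16.8, 19.2 and 30.9 in those labelled nPD-L1, so it was not higher where the insert was expected, and directions below rest on the labels. Of 10 hepatocyte and hepatoma markers, 8 had a row and 5 stayed under 10 scaled reads in every library (ALB, APOA1, APOB, TTR and TF), SERPINA1 ranged from 7.91 to 41.4 and FGB from 962 to 1540, and AFP and GPC3 were not analysed here. HNF4A, a hepatocyte transcription factor, had 19.2, 11.3 and 6.24 scaled reads in the vector libraries and 51.3, 51.6 and 33.8 in those labelled nPD-L1, without overlap (log2 fold change 1.91, adjusted p = 0.0232 by limma). Of the markers of other cell types, 3 of 6 leukocyte markers had a row and summed to 1.93 to 16.8 scaled reads, and 2 of 4 endothelial markers summed to 0.840 to 6.06. The 4 of 5 fibroblast markers with a row summed to 170 to 245 in the vector libraries and 586 to 655 in those labelled nPD-L1, nearly all of it COL1A1 (49.9 to 82.8 against 445 to 487) and LUM, while DCN and PDGFRB stayed under 10. The part of these differences in the results below was not tested. The name Hep3B also rests on the labels, and the 5 hepatocyte and hepatoma markers under 10 scaled reads do not bear it out.

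The question put to the 44 genes was whether they differed between cells with nPD-L1 and cells with the vector. The genes were lower on average in the libraries labelled nPD-L1, by a small amount that varied with the library, and 1 gene, the kinesin KIF2C, was called and rose. The log2 fold change was below 0 in 38 genes and above 0 in 6, and its median was -0.16, against -0.019 over the 15076 genes tested. By limma with Benjamini-Hochberg adjustment over all genes tested, at an adjusted p under 0.05, 1 of the 44 was called higher and 0 were called lower. The same rule called 4.04% of all genes higher and 0.922% lower. At an unadjusted p under 0.05, 1 of the 44 was higher (9.53% of all genes) and 6 were lower (4.71% of all genes), and edgeR and DESeq2 on the recovered reads also called 1 higher and 0 lower. The 3 libraries of each group did not overlap in 2 genes that were higher (12% of all genes) and 6 that were lower (8.54% of all genes). The 95% interval of the fold change lay within 2-fold either way for 40 of the 44 genes (90.9%) and for 77.9% of all genes tested. Among the 10725 genes that averaged 100 scaled reads or more, which leaves out low genes, the share was 94.5%. The 4 others of the 44 were CENPE, CENPF, ASPM and PRC1.

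**Figure D1:**
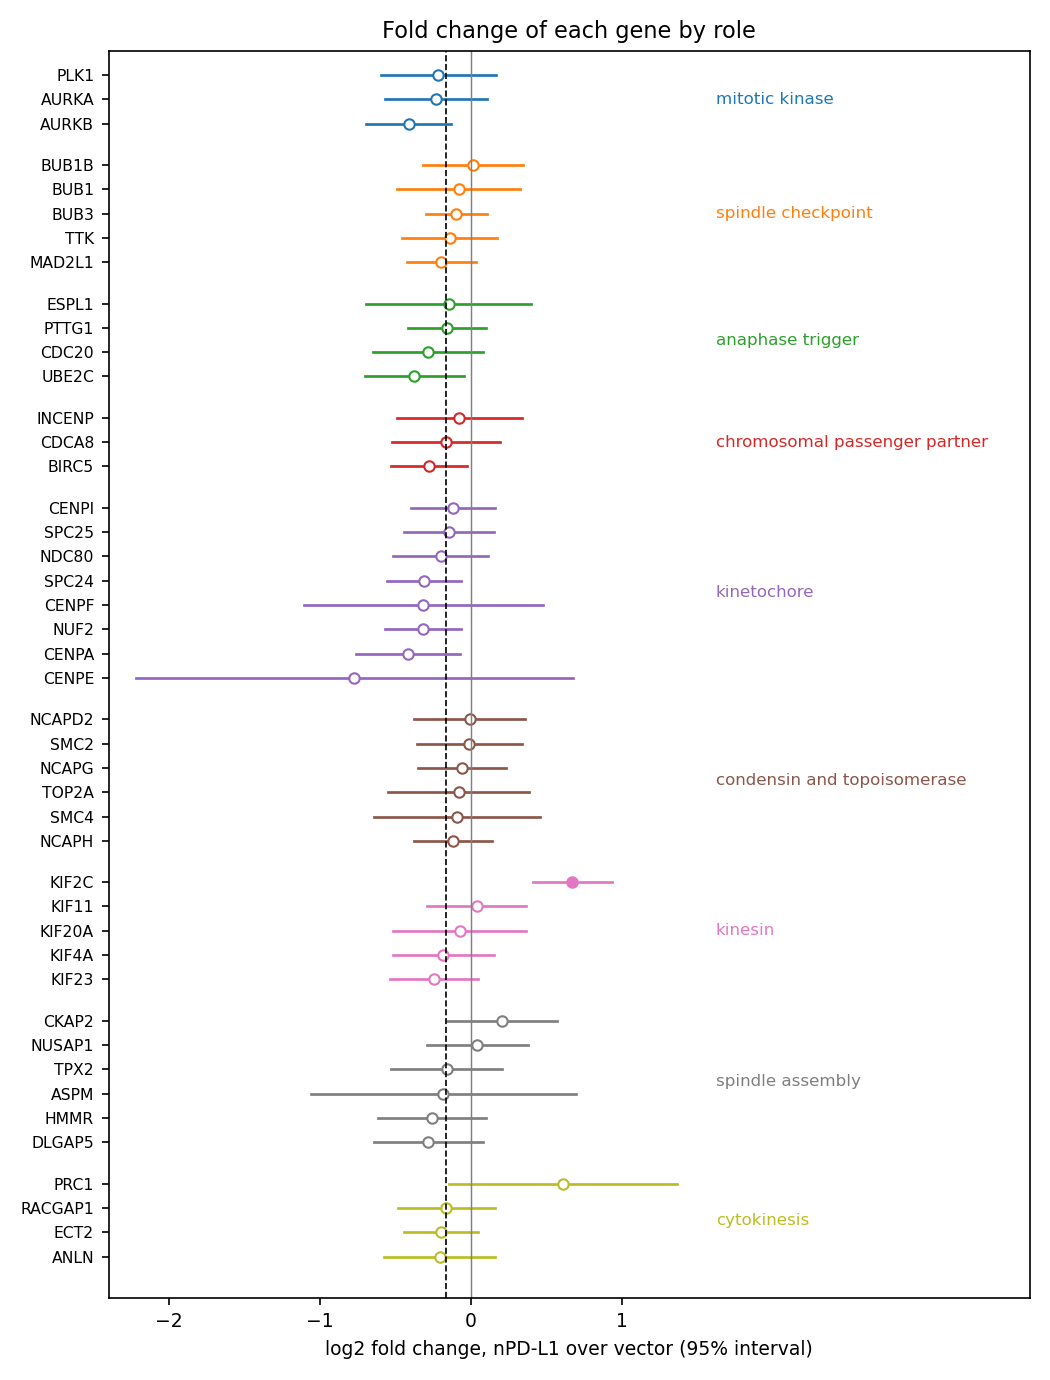
Log2 fold change of each of the 44 genes, nPD-L1 over vector, with its 95% interval from limma (3 libraries per group), grouped by role. The filled point is the gene with an adjusted p under 0.05 (KIF2C), the dashed line is the median of the 44 (-0.16), and 38 of the points lie left of 0.

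The spread between libraries of the same group was as large as the difference between groups. For each library, the log2 level of each gene was set against its own mean over the 6 libraries. The median of these deviations over the 44 genes was 0.17, -0.15 and 0.24 in vector replicates 1, 2 and 3. It was 0.15, -0.27 and -0.095 for nPD-L1 replicates 1, 2 and 3. Over all genes tested the same median lay between -0.00066 and 0.0095 in every library. Of the 44 genes, 38, 12 and 42 were above their own mean in the vector libraries and 41, 2 and 14 in those labelled nPD-L1. Thus vector replicate 2 was low and nPD-L1 replicate 1 was high, each unlike the other libraries of its group.

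All 44 genes were higher in nPD-L1 replicate 1 than in nPD-L1 replicate 2, with a median log2 difference of 0.42. Within the vector group, 39 of the 44 were higher in replicate 3 than in replicate 2 (the log2 difference of replicate 2 from replicate 3 had a median of -0.41), and 38 were higher in replicate 1 than in replicate 2 (median 0.31). Between groups, vector replicate 1 and nPD-L1 replicate 1 differed least, with 21 genes higher in the former, 23 lower and a median of -0.0055. nPD-L1 replicate 1 lay inside the range of the vector libraries for 31 genes, whereas nPD-L1 replicate 2 lay below all 3 vector libraries for 30 and replicate 3 for 17. The shares of all genes tested with these positions were not counted, so the counts are not shown to be particular to the 44. Fewer cells in G2 and mitosis and less of each transcript per cell cannot be told apart in such bulk libraries.

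The median fold change moved with single libraries accordingly. It was -0.30 without vector replicate 2 and -0.27 without nPD-L1 replicate 1, with 40 genes lower in each case. It was -0.058 without nPD-L1 replicate 2, with 27 genes lower, and -0.080 without vector replicate 3, with 28 lower. Without vector replicate 2, AURKB (adjusted p = 0.00761) and ESPL1 (adjusted p = 0.0234) were called lower by limma. In that setting 791 genes were called higher and 242 lower of 14854 tested, more than the 609 and 139 with all libraries. With upper-quartile factors the median was -0.19, and with equal library totals it was -0.14, so its sign did not depend on the scaling.

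**Figure D2:**
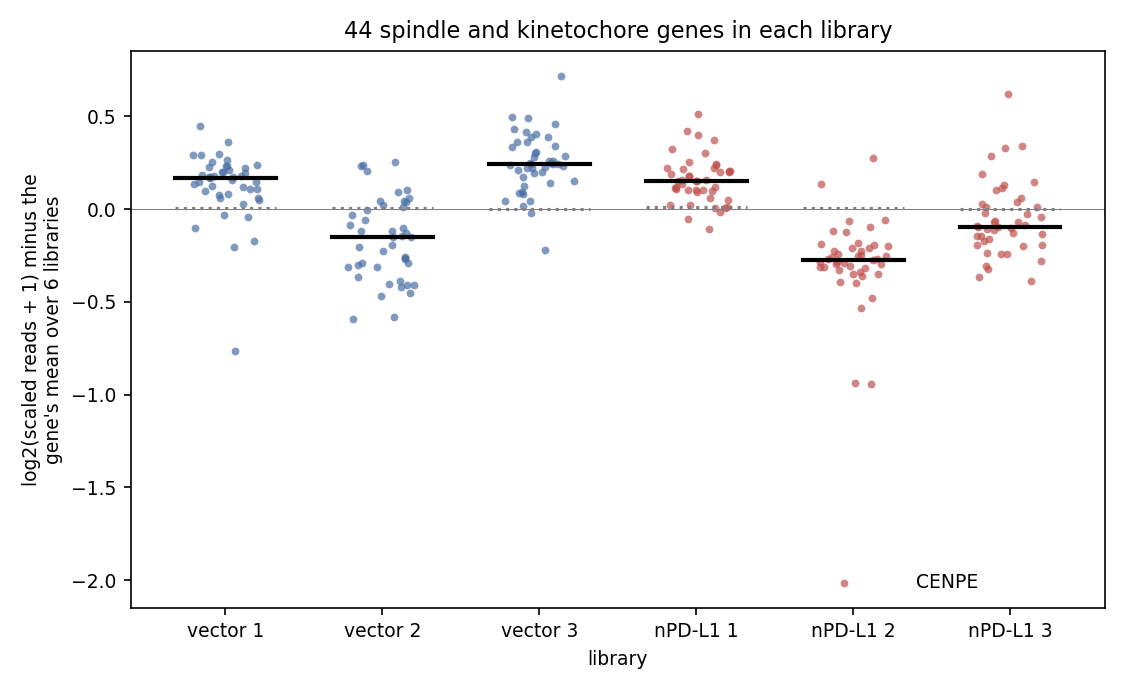
Each point is 1 of the 44 genes in 1 library, as its log2(scaled reads + 1) minus its mean over the 6 libraries. Black bars are medians over the 44 genes, 0.17, -0.15 and 0.24 for vector and 0.15, -0.27 and -0.095 for nPD-L1, and dotted bars are medians over all genes tested.

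The 9 roles followed the same course across libraries. Every role had a positive median deviation in vector replicates 1 and 3 and in nPD-L1 replicate 1, and a negative one in nPD-L1 replicate 2. The roles parted in 2 libraries. In vector replicate 2 the kinetochore genes stood at 0.039 and the condensin and topoisomerase genes at -0.36. In nPD-L1 replicate 3 the mitotic kinases stood at -0.28, the anaphase triggers at -0.24 and the passenger partners at -0.19, while condensin and topoisomerase (0.0050) and spindle assembly (0.0090) stood near 0. The median fold change by role ran from -0.31 for kinetochore genes to -0.071 for condensin and topoisomerase. These are medians of 3 to 8 genes, and the roles were not tested against each other.

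The deposited gene length also moved with these values. Among all genes tested, those under 3000 bases had a median deviation of 0.21 in vector replicate 2 and those of 8000 bases or more -0.19. The 10 members under 3000 bases had a median deviation of 0.032 there, the 28 between had -0.22 where all such genes had -0.0070, and the 6 of 8000 bases or more had -0.37. In nPD-L1 replicate 2 no such trend was present over all genes (-0.0029 in the short and 0.019 in the long ones), and the members had -0.28, -0.25 and -0.73 from short to long. With the length trend removed in each library, the median fold change was -0.20 and 40 genes were lower. The median over all genes tested also moved, from -0.019 to -0.066.

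**Figure D3:**
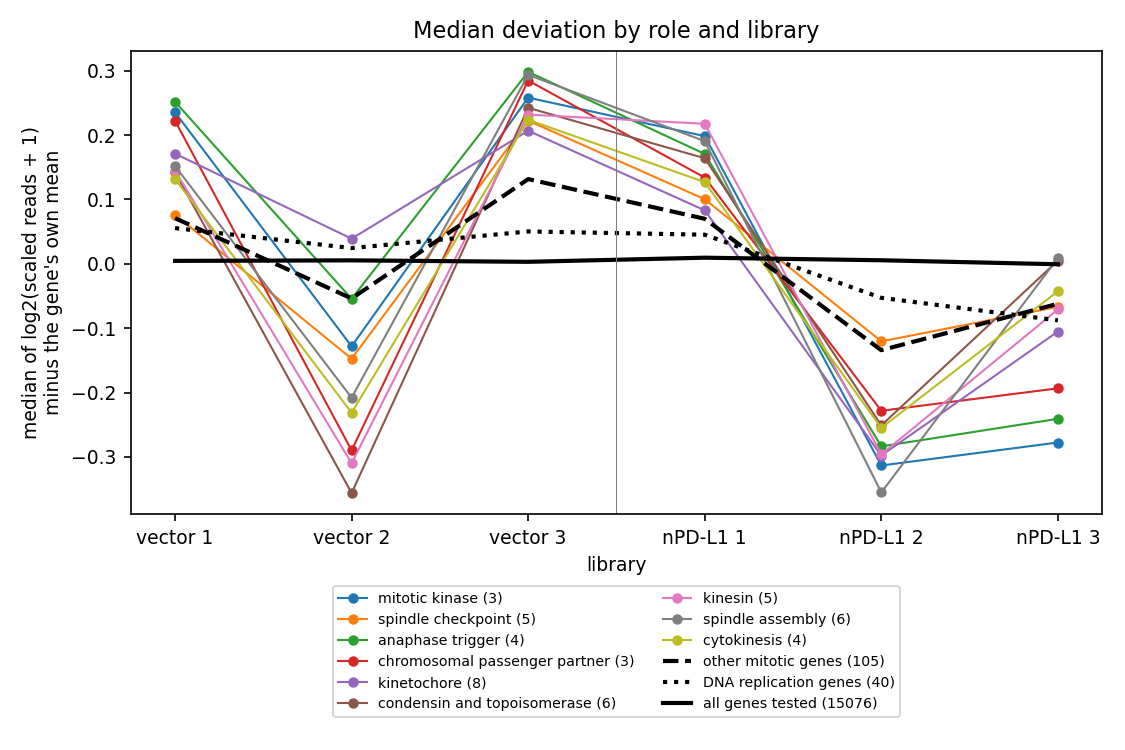
Median deviation from the gene's own mean (log2 of scaled reads + 1) in each library for the 9 roles (coloured lines, number of genes in brackets), for 105 other mitotic genes (dashed), for 40 DNA replication genes (dotted) and for all genes tested (solid black). All 9 roles are above 0 in vector 3 and below 0 in nPD-L1 2, and all genes tested stay near 0.

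The promoters of these genes were examined because the genes moved together from library to library. In late mitotic genes the CHR, a cell cycle element, and CCAAT boxes bound by NF-Y are known sites, while E2F sites are better known from genes of the G1/S transition. The RefSeq promoter table (GRCh38.p14) held 42 promoters of 37 of the 44 genes, each from 250 bases before to 50 bases after the transcription start. AURKA, BIRC5, BUB3, RACGAP1, TPX2, TTK and UBE2C were not matched. On both strands, the CHR letters TTTGAA or TTCGAA were present in 29 of the 42 promoters (69.0%) and in 16.4% of all 35116 promoters of the same length. CCAAT was present in 28 (66.7%, against 34.6% of all), and both in 21 (50%, against 6.38% of all). The E2F-type letters TTGGCGC or TTCCCGC were present in 5 (11.9%, against 9.23% of all). CCAAT on the other strand can share bases with TTTGAA or TTGGCGC, as it does with TTTGAA in CDCA8. A match is a description of letters and not evidence of binding. In 15 genes a TTTGAA began within the 40 bases before the start. KIF2C, CENPE, CENPI and CKAP2 held none of the letters searched. KIF2C and CKAP2 were 2 of the 6 genes with a fold change above 0, CENPE was the gene with the lowest, and CENPI had -0.12. BUB1B, KIF11, NUSAP1 and PRC1, also above 0, each held TTTGAA. The 28 genes with TTTGAA or TTCGAA had a median log2 fold change of -0.18 (24 lower). The 9 with neither had -0.12 (7 lower), and the difference was not tested.

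The 110 bases before the start are shown for 6 genes with both motifs, chosen to span the roles. These are a kinase, 2 anaphase triggers, a passenger partner, a kinesin and a cytokinesis gene. Also shown are SPC24, with CCAAT and neither CHR spelling searched, and KIF2C and CENPE, with none of the letters searched. Other spellings of the CHR were not searched. The stretches read 5′ to 3′ on the strand of the gene, and capitals mark TTTGAA and CCAAT or their reverse complements TTCAAA and ATTGG.
PLK1 (chr16:23678779-23678888, + strand): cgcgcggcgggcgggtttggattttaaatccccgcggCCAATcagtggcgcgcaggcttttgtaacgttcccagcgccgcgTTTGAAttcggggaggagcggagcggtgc
CDC20 (chr1:43358871-43358980, + strand): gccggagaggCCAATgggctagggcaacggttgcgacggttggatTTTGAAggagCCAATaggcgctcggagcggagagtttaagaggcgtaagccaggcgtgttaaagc
ESPL1 (chr12:53268189-53268298, + strand): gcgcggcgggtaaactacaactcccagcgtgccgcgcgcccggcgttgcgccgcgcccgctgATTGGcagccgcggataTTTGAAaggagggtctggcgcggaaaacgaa
CDCA8 (chr1:37692406-37692515, + strand): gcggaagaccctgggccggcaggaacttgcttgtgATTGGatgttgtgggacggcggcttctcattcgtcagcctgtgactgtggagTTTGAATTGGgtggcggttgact
KIF11 (chr10:92593020-92593129, + strand): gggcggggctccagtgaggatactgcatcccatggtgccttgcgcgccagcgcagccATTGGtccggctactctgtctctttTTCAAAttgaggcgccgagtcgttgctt
PRC1 (chr15:90994536-90994645, - strand): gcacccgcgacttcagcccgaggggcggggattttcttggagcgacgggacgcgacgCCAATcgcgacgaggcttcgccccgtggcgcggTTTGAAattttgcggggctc
SPC24 (chr19:11155783-11155892, - strand): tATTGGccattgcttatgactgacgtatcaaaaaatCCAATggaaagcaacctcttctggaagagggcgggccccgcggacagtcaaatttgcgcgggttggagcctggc
KIF2C (chr1:44739727-44739836, + strand): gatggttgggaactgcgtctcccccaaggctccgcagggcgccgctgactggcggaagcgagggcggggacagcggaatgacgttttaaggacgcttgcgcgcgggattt
CENPE (chr4:103198344-103198453, - strand): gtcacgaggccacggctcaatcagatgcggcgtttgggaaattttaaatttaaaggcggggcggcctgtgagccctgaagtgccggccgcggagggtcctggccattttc
In PLK1 the TTTGAA began at position -29 and the CCAAT at -73, counted back from the transcription start, in ESPL1 they began at -31 and -48, and in PRC1 at -20 and -53. In CDC20 the TTTGAA at -65 lay between CCAAT boxes at -100 and -55, an order that differs from that of PLK1, ESPL1 and PRC1. The KIF2C and CENPE stretches held no capitals.

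The mitotic kinases were lower in the libraries labelled nPD-L1 in all 3 cases, and none was called. AURKB, the kinase of the chromosomal passenger complex (ENSG00000178999, chr17:8204733-8210600, - strand, GRCh38), had 1918, 1655 and 2095 scaled reads in the vector libraries and 1638, 1277 and 1344 in those labelled nPD-L1. The groups did not overlap, although the highest nPD-L1 library and the lowest vector library were nearly level. The log2 fold change was -0.41 (95% interval -0.69 to -0.13), with an adjusted p of 0.116 by limma. PLK1, which drives entry into mitosis and centrosome maturation, had 3634, 2538 and 3550 against 3498, 2492 and 2396. Only nPD-L1 replicate 1 lay inside the vector range, and vector replicate 2 was close to nPD-L1 replicates 2 and 3 (log2 fold change -0.22, adjusted p = 0.646). AURKA, the kinase of the spindle poles, had a fold change of -0.23 and overlapping groups. AURKB also had the highest level per length of the kinases, 843 ± 98.9 scaled reads per kb (SD, n = 3) in the vector libraries.

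The spindle checkpoint genes differed little, with log2 fold changes from -0.20 to 0.012. MAD2L1, which forms the inhibitor that holds CDC20, had 1733, 2125 and 1888 scaled reads in the vector libraries and 1652, 1640 and 1702 in those labelled nPD-L1. These did not overlap, the vector library nearest to the others being replicate 1 (log2 fold change -0.20, interval -0.43 to 0.03, adjusted p = 0.447). BUB3, a checkpoint scaffold that is needed through the cell cycle, was the steadiest of the 44. It had 5447, 5395 and 5400 against 5253, 5009 and 4933, without overlap, for a log2 fold change of -0.097 (adjusted p = 0.700). Its within-group SD of 0.03 on the log2 scale was smaller than that of all but 0.671% of the 10725 genes that averaged 100 scaled reads or more. BUB3 was also the most abundant of the role per length, with 652 ± 3.49 scaled reads per kb. BUB1B, the checkpoint protein BubR1, had 1212, 863 and 1297 against 1192, 1040 and 1122 and a fold change of 0.012, whose sign turned with upper-quartile factors (-0.014). BUB1 (-0.082) and TTK (-0.14), both checkpoint kinases, had overlapping groups.

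The genes that trigger anaphase had negative fold changes in all 4 cases. UBE2C, the ubiquitin-conjugating enzyme of the anaphase-promoting complex, had 1990, 1638 and 1949 scaled reads in the vector libraries and 1806, 1238 and 1299 in those labelled nPD-L1. nPD-L1 replicate 1 lay among the vector libraries and the other 2 lay below them (log2 fold change -0.38, interval -0.70 to -0.05, adjusted p = 0.259). CDC20, the activator of that complex, was the most abundant of the 44 per length in the vector libraries, with 1826 ± 287 scaled reads per kb. It had 3870, 3076 and 4216 scaled reads against 3895, 2747 and 2593, the same arrangement as UBE2C (log2 fold change -0.29, adjusted p = 0.509). ESPL1, which encodes separase, had 1463, 754 and 1567 against 1300, 936 and 1042. Here vector replicate 2 was the lowest of all 6 libraries, the fold change was -0.15 (adjusted p = 0.832) and among the settings tried it was called lower only without that library. PTTG1, securin, the inhibitor of separase, had a fold change of -0.16.

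Of the partners of the chromosomal passenger complex, BIRC5, which encodes survivin, had 3711, 3529 and 3614 scaled reads in the vector libraries and 3503, 2723 and 2771 in those labelled nPD-L1. Its groups did not overlap, but nPD-L1 replicate 1 was within reach of the vector libraries and the other 2 were lower (log2 fold change -0.28, interval -0.53 to -0.03, adjusted p = 0.279). BIRC5 was also the highest of the role per length, at 948 ± 23.9 scaled reads per kb. INCENP, the scaffold of the complex, had 1680, 1085 and 1775 against 1707, 1229 and 1312, with low libraries in both groups (fold change -0.078). CDCA8, borealin, had a fold change of -0.17 and overlapping groups.

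The kinetochore genes had negative fold changes in all 8 cases. CENPA, the histone H3 variant that marks centromeres, had 674, 605 and 770 scaled reads in the vector libraries and 639, 457 and 449.5 in those labelled nPD-L1. Only nPD-L1 replicate 1 reached the vector range (log2 fold change -0.42, interval -0.77 to -0.07, adjusted p = 0.222). CENPA was the most abundant of the role per length, with 345 ± 41.7 scaled reads per kb. SLC35F6, which averaged 1384 scaled reads, overlaps 46.1% of the CENPA locus on the same strand. SLC35F6 ends at 26781231, before the promoter window of CENPA that held a CHR, which starts at 26785806.

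NUF2, SPC24, NDC80 and SPC25 together form the NDC80 complex, the main coupling of kinetochores to microtubules. NUF2 had 1069, 1011 and 1100 scaled reads in the vector libraries and 964, 767 and 829 in those labelled nPD-L1 (log2 fold change -0.32, interval -0.57 to -0.07, adjusted p = 0.189). SPC24 had 737, 754 and 699 against 648, 566 and 553 (log2 fold change -0.31, interval -0.56 to -0.07, adjusted p = 0.187). Both were without overlap between groups. NDC80 (-0.20) and SPC25 (-0.15) overlapped. From start to end, introns included, NUF2 shares 55319 bases with RGS5 on the opposite strand. SPC25 likewise shares 31383 with NOSTRIN. The entries of RGS5 averaged 12.9 and 33.5 scaled reads, and NOSTRIN averaged 248. The library kit does not mark strand, so reads in any shared exon cannot be assigned, and overlap of exons was not examined.

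CENPE, the kinesin that carries chromosomes to the spindle equator, had the lowest fold change of the 44, and it rested on 1 library. It had 833, 610 and 1005 scaled reads in the vector libraries and 873, 151 and 773 in those labelled nPD-L1. The low value was that of nPD-L1 replicate 2, and the 2 other nPD-L1 libraries lay among the vector libraries. The log2 fold change was -0.77 with an interval from -2.22 to 0.68, and it was 0.040 without nPD-L1 replicate 2 (adjusted p = 0.963). Among the 10725 genes that averaged 100 scaled reads or more, CENPE was the only 1 whose level in nPD-L1 replicate 2 was under 1/3 of its level in every other library, and no gene had such a low value in any of the other libraries. CENPF, a large protein of the outer kinetochore, was also lowest there, with 3717, 2434 and 4259 against 3781, 1572 and 3352 (log2 fold change -0.32, and 0.076 without that library). nPD-L1 replicate 2 was the lowest library for 25 of the 44 genes. CENPI, of the inner kinetochore, had 556, 478 and 597 against 536, 456 and 505 and the fold change nearest to 0 of the role, -0.12.

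Condensin and topoisomerase genes had the fold changes nearest to 0 as a role, from -0.12 to -0.0097, beside wide differences within groups. TOP2A, which untangles sister DNA and is a common proliferation marker, had 10797, 6938 and 12424 scaled reads in the vector libraries and 11327, 7456 and 9307 in those labelled nPD-L1. Each group held a low and a high library, and the difference between groups (log2 fold change -0.081, interval -0.55 to 0.39) was smaller than that between libraries of a group. It was the highest of the role per length, with 1562 ± 438 scaled reads per kb. NCAPH, the condensin I kleisin subunit, had 1405, 1214 and 1466 against 1410, 1147 and 1204 (fold change -0.12). NCAPD2, another condensin I subunit, had 5400, 3589 and 5646 against 5390, 4383 and 4539 (fold change -0.0097, and 0.015 with equal library totals). NCAPG (-0.060), SMC2 (-0.012) and SMC4 (-0.094) overlapped as well.

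Among the kinesins, KIF2C stood apart from the other 43 genes. It encodes MCAK, a kinesin that depolymerizes microtubules at centromeres and helps to correct wrong attachments (ENSG00000142945, chr1:44739818-44767767, + strand, GRCh38). KIF2C had 1631, 1256 and 1614 scaled reads in the vector libraries and 2475, 2278 and 2359 in those labelled nPD-L1. Every nPD-L1 library was above every vector library, and the means were 1500.3 ± 212 and 2370.4 ± 99.1 (SD, n = 3), a ratio of 1.58. The log2 fold change was 0.67 (SE 0.12, interval 0.41 to 0.93), with an adjusted p of 0.00674 by limma. It lay between 0.55 and 0.73 with any library left out. The adjusted p was 0.0577 without nPD-L1 replicate 1 and 0.0599 with moderation that had neither trend nor robust settings, and 0.0450 or less in the other settings tried. On recovered reads it was 0.00735 by edgeR and 3.86e-05 by DESeq2.

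KIF2C also followed the course of the other genes inside the vector group, where replicate 2 was its lowest library, and in the group labelled nPD-L1, where replicate 1 was its highest. The antisense transcript AL592166.1 covers 31.2% of its locus and had at most 5.06 scaled reads. KIF11, which pushes the spindle poles apart, was the next kinesin in fold change (0.037) and the most abundant kinesin per length in the vector libraries, with 617 ± 107 scaled reads per kb. KIF11 had 3125, 2422 and 3443 against 3460, 2598 and 3130, and its sign turned with the length trend removed (-0.015). KIF23, a motor of the central spindle, had 2622, 2232 and 2938 against 2469, 1892 and 2216 (fold change -0.24, adjusted p = 0.471). KIF20A (-0.075) and KIF4A (-0.18), which act in late mitosis, overlapped between groups.

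**Figure D4:**
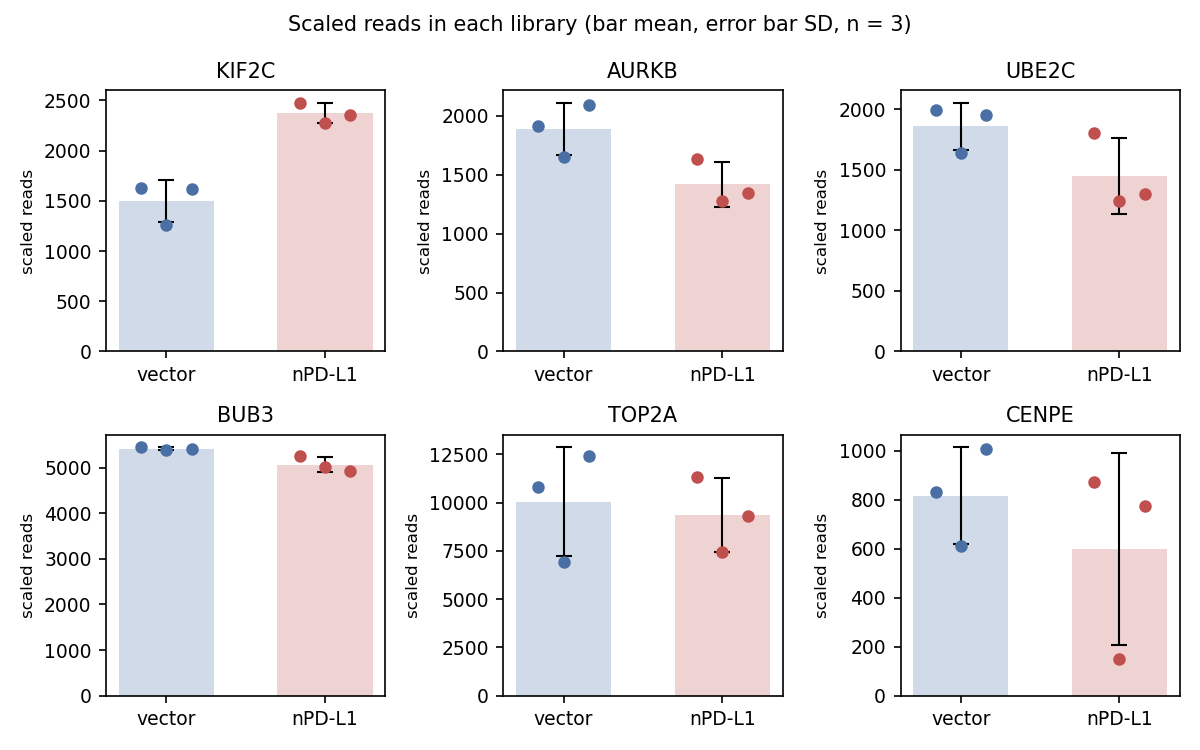
Scaled reads of 6 genes in each library, with points for libraries in replicate order, bars for the mean and error bars for the SD (n = 3 per group). KIF2C is higher in every library labelled nPD-L1, AURKB and BUB3 are lower without overlap, UBE2C and TOP2A overlap, and CENPE is low in nPD-L1 replicate 2 alone (151).

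The spindle assembly factors ranged from -0.28 to 0.20. TPX2, which activates AURKA and nucleates microtubules, had 6133, 4533 and 6888 scaled reads in the vector libraries and 6157, 4395 and 5056 in those labelled nPD-L1 (fold change -0.16). It was the most abundant of the role per length, with 1623 ± 334 scaled reads per kb. DLGAP5, a microtubule binding protein also known as HURP, had 1708, 1394 and 1726 against 1674, 1040 and 1311 (fold change -0.28, adjusted p = 0.508). CKAP2, a spindle protein, had 1482, 1299 and 1691 against 2133, 1341 and 1741, with nPD-L1 replicate 1 above the rest and the groups overlapping (fold change 0.20, interval -0.16 to 0.57, adjusted p = 0.647). ASPM, a large protein of the spindle poles, was lowest in nPD-L1 replicate 2 in the same way as CENPE and CENPF. It had 1821, 1187 and 2241 against 2060, 829 and 1938, and its fold change was -0.18 with all libraries and 0.24 without nPD-L1 replicate 2. HMMR (-0.26) and NUSAP1 (0.042) overlapped, and NUSAP1, with 154 to 188 scaled reads, was the second lowest in level per length.

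Of the cytokinesis genes, ECT2, the exchange factor for the GTPase RhoA, had 6015, 5463 and 6505 scaled reads in the vector libraries and 5380, 4669 and 5622 in those labelled nPD-L1 (fold change -0.20, interval -0.45 to 0.05, adjusted p = 0.490). It was the highest of the role per length, with 1090.02 ± 94.8 scaled reads per kb. ANLN, anillin, had 4080, 3064 and 4890 against 3931, 2937 and 3427 (fold change -0.21), and RACGAP1, a partner of KIF23, had a fold change of -0.17. PRC1, which bundles the microtubules of the central spindle, had only 14.1, 20.3 and 27.0 scaled reads (14 reads in the lowest library) against 27.7, 27.3 and 38.6. Its groups did not overlap by a margin of less than 1 scaled read (log2 fold change 0.61, interval -0.15 to 1.37, adjusted p = 0.490). The PRC1 locus (chr15:90966038-90995629, - strand) lies to 99.5% inside that of AC068831.7 on the same strand, which had 42.9 to 170 scaled reads, so the PRC1 value is uncertain, and at 3.71 scaled reads per kb it was by far the lowest of the 44.

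The rest of the mitotic machinery and DNA replication genes were set beside the 44. Of 105 other mitotic genes, 72 were lower and 33 higher in the libraries labelled nPD-L1, with a median log2 fold change of -0.11, and 1 was called. That was WEE1, the kinase that holds back CDK1, which rose. WEE1 had 1466, 1439 and 1293 scaled reads in the vector libraries and 2193, 2073 and 2343 in those labelled nPD-L1 (log2 fold change 0.66, interval 0.43 to 0.88, adjusted p = 0.00276 by limma). The called count was 8 without vector replicate 2, where calls over all genes numbered 791 higher and 242 lower of 14854, and 2 without vector replicate 3, where they numbered 679 and 137 of 14834. Of 40 DNA replication genes, 33 were lower, the median was -0.095, and 0 were called by limma with 0 at an unadjusted p under 0.05 and 0 by edgeR and DESeq2. Their median deviations by library ran from -0.088 to 0.055 and those of the other mitotic genes from -0.13 to 0.13, against -0.27 to 0.24 for the 44. The other kinesins and spindle genes (23) came nearest to the 44, from -0.28 to 0.29. The list of anaphase-promoting complex subunits and proteins that work with or regulate it (14) ran from -0.084 to 0.11. These differences in spread between lists were not tested.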

How the data were processed

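Total RNA of 6 samples labelled as Hep3B PD-L1-knockout cells was sequenced as libraries prepared with a kit that does not mark strand. Per the labels, CASAVA and HISAT2 2.0.5 with genome build hg38 were used; the counter, annotation and test are not given in the sources used here. The authors' deposited values are a signal per gene and library, reads divided by a size factor, although presented as raw. All values were whole multiples of the value of 1 read within 0.01 read. The authors' columns of group means, fold change, p-value and adjusted p-value hold their own comparison and were not used. Libraries were grouped by their titles, and 0 per-sample columns were left over.

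A test by edgeR had been planned only for whole counts, and the values are scaled. The test was therefore limma 3.58.1 (R 4.3.3), as planned. It was fitted to log2(value + 1), and eBayes moderated the variances with its trend and robust options. Genes had to reach 10 scaled reads in 3 or more libraries, which left 15076. Fold changes are on that log2 scale, which understates low genes. p values were adjusted by Benjamini-Hochberg over all genes tested, and a gene was called at an adjusted p under 0.05. edgeR 4.0.16 and DESeq2 1.42.0 were run on the recovered reads as alternatives, beside other scalings, filters, pseudocounts, moderation, a replicate block, a length trend and each library left out. Scripts were tested on simulated data. Members and lists were chosen with earlier results of these data known. All members are accounted for, and values in every library are given for members called, with an unadjusted p under 0.05, without overlap, or with the highest or lowest fold change or the highest level per kb of their role, and for CENPF and ASPM, named after their values were seen. Some results for single genes are not reported here. Levels per kb use the deposited gene length. Promoter sequences came from RefSeq (GRCh38.p14). In each library 43 of the 44 members had at least 100 reads, and PRC1 had as few as 14, where counting error is large.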

Additional observations from a re-analysis of the deposited data

How the results depend on the processing

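Alternatives that used recovered reads or a length trend were chosen after seeing the data. Of the 44 genes, 29 kept the sign of their fold change in all 18 alternative settings and 15 did not. The count of members called higher was 0 with moderation that had neither trend nor robust settings, and 0 to 1 with a library left out. The count called lower was 6 at an unadjusted p, 0 to 2 with a library left out, and 2 with the replicate block (AURKB, adjusted p = 0.0178, and UBE2C, adjusted p = 0.0347, by limma). The labels do not say whether same-numbered libraries were paired. Deviations of libraries numbered 1, 2 and 3 correlated with the same number at -0.013, 0.23 and 0.13 over 15076 genes. Replicates 2 and 3 correlated best with their own number, and replicate 1 did not. Replicate 2 was the lowest vector library for 38 of the 44 genes and the lowest nPD-L1 library for 38. The same was not counted over all genes tested. Whether same-numbered libraries shared an effect was not tested. All-gene calls under the block were 927 higher and 258 lower, against 609 and 139. Of the 105 other mitotic genes, 14 passed at an unadjusted p, where 9.53% of all genes were higher and 4.71% lower. With adjusted p values, 2 were called with equal totals (all genes 593 higher, 122 lower) and 4 without a filter (694 and 165 of 27009). The replicate block called 8, the length trend 3 (574 and 182) and DESeq2 5 (758 and 202 of 15076). With a library left out the count was 1 to 8. Promoters with an E2F-type match numbered 3 in the shorter window. The cause of these differences was not tested.

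Fold changes turned sign for BUB1B with upper-quartile factors (-0.014), the length trend (-0.032) and DESeq2 (-0.0079), for NCAPD2 (0.015) and SMC2 (0.012) with equal totals, and for KIF11 with the length trend (-0.015). With a library left out they ran from -0.30 to 0.079 in BUB1, -0.17 to 0.13 in BUB1B, -0.48 to 0.043 in ESPL1, -0.30 to 0.054 in INCENP, -1.22 to 0.040 in CENPE, -0.56 to 0.076 in CENPF, -0.17 to 0.043 in NCAPG, -0.22 to 0.11 in NCAPD2, -0.17 to 0.12 in SMC2, -0.35 to 0.15 in SMC4, -0.33 to 0.093 in TOP2A, -0.11 to 0.15 in KIF11, -0.29 to 0.077 in KIF20A, -0.033 to 0.084 in NUSAP1 and -0.44 to 0.24 in ASPM.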

Other observations

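Beside CENPE, CENPF and ASPM, 3 other genes that are not among the 44 were picked out after their values were seen. In each of them nPD-L1 replicate 2 was the lowest library. How many of all genes tested had their lowest value there was not counted. KIF20B, a kinesin of late mitosis, had 347 scaled reads there against 777 to 1426 in the vector libraries, 1177 in nPD-L1 replicate 1 and 1034 in nPD-L1 replicate 3. BRCA2, which acts in repair by homologous recombination, had 174 there, 457 to 709 in the vector libraries, and 556 and 558 in nPD-L1 replicates 1 and 3. AKAP9, a scaffold protein of centrosomes and the Golgi, had 228 there, 486 to 712 in the vector libraries, and 687 and 782 in nPD-L1 replicates 1 and 3. All 3 had adjusted p values by limma of 0.645 to 0.841 for the comparison of the groups.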
